A study of Mus musculus with 4 samples.

Results

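A set of 1004 regions of convergent transcription was called in both libraries of unsynchronized B cells and in neither library of early G1 cells. They were found by merging the region lists of the 4 libraries wherever regions shared at least 1 base, which gave 20175 merged regions, so that the set made up 4.98% of all merged regions and 12.6% of the 7942 called in both unsynchronized libraries. Membership was thus set by the presence and position of calls. The rule by which regions were called is not given, so the signal of members may not be independent of their choice. Nascent RNA was measured by global run-on sequencing (GRO-seq) in splenic B cells of C57BL/6 mice carrying Fucci-EGFP, a fluorescent reporter whose level follows the cell cycle. Cells of both groups were activated in culture by LPS, IL4 and Rp105. The 2 unsynchronized libraries are labelled as total cell controls and named as untreated by the authors. For the 2 early G1 libraries nocodazole, a microtubule poison that arrests cells in mitosis, was given at 100 ng/ml, 42 h after isolation. After 6 h the EGFP+ cells, labelled as mostly G2/M, were sorted, cultured again for 1.5 h at 37 °C and sorted a second time as early G1 cells. The labels carry this treatment text on all 4 samples, and the name the authors gave the first early G1 library has 1 h in place of 1.5 h. Drug, sorts and second culture cannot be told apart from the cell cycle phase. Whether replicates came from separate mice is not stated, so the p-values below measure only the spread between these libraries. The lists hold positions on the mouse build mm9 and no gene names, and the B cell identity was therefore not checked against marker genes.

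Convergent transcription arises where RNA polymerases move towards each other on opposite strands, so that sense and antisense nascent transcripts cover the same DNA. It is found at gene starts, where upstream antisense transcripts meet other transcription units, at enhancers inside genes, and where neighbouring genes run into each other. In activated B cells it has been linked to the sites that the mutating enzyme AID attacks outside the immunoglobulin genes. During mitosis most transcription stops, and genes and enhancers are turned on again as cells enter G1.

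The unsynchronized libraries held 12538 and 11961 called regions and the early G1 libraries 12768 and 10708, each at least 101 bp long. The signal of a region is the authors' geometric mean of its strands. In each library the squared product of signal and length was a whole multiple of a library constant, and "reads" below means that product divided by its unit. This is taken as the geometric mean of the sense and antisense counts, assuming that the unit stands for a single read on each strand. The total count of both strands would then be higher. If the signal was scaled as reads by RPKM, these constants correspond to a depth of 14720000 and 13480000 reads for unsynchronized cells. The early G1 libraries would then have 8170000 and 9520000 reads, 0.627 times as many on average. On that assumption depth went with the group. Members were chosen by their calls, so their lengths and signals are descriptions without a test, and a missing call leaves no value in early G1 cells.

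The unsynchronized-only regions were mostly weak. Their signal had a median of 7.46 in unsynchronized replicate 1, with quartiles of 4.82 and 11.7, and a median of 10.05 in replicate 2, with quartiles of 6.51 and 16.2. Regions called in all 4 libraries (shared regions, n = 4972) had medians of 16.9 and 22.4 in the same libraries. The median member thus stood at percentile 33.2 of all regions of replicate 1 and percentile 32.3 of replicate 2. Of the 1004 regions, 709 lay below the median signal of replicate 1 and 708 below that of replicate 2. Not all were weak, since 93 and 92 members belonged to the highest 25% of these libraries and 24 and 34 to the highest 10%. In pooled cells, transcription in fewer cells and less nascent RNA per cell cannot be told apart.

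**Figure D1:**
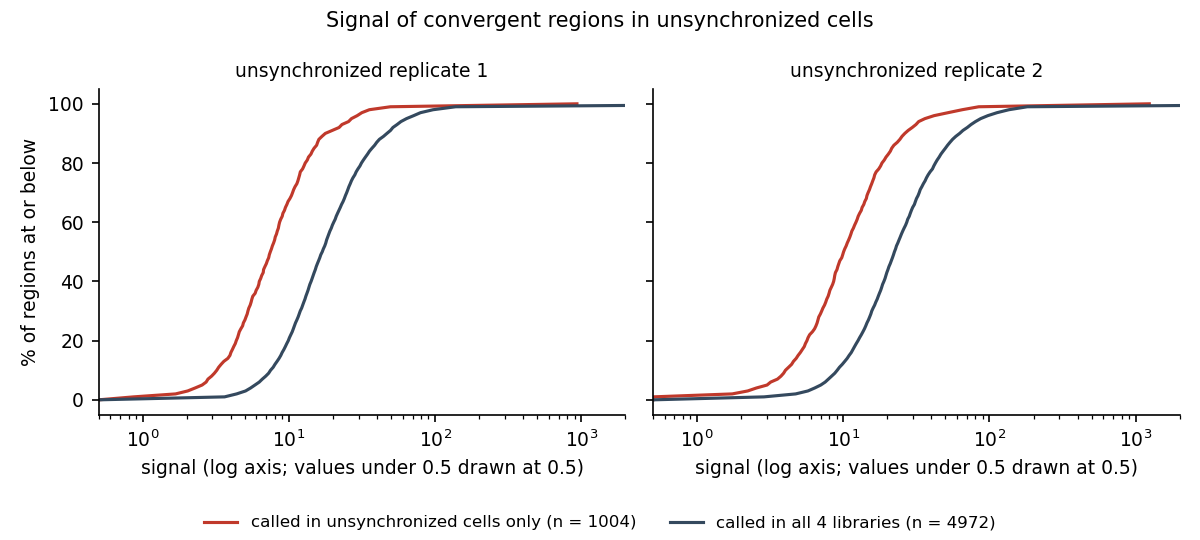
Cumulative share of regions (vertical axis, %) against signal (horizontal log axis, authors' units) in the 2 unsynchronized libraries, for the 1004 regions called in unsynchronized cells only (red) and the 4972 called in all 4 libraries (dark). The red curves lie to the left of the dark ones in both libraries, with medians of 7.46 against 16.9 in replicate 1 and 10.05 against 22.4 in replicate 2.

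The members also rested on fewer reads than shared regions did. The median member held 94.1 reads in unsynchronized replicate 1 and 103.5 in replicate 2, against 305 and 344 for shared regions. The lower quartiles were 52.5 and 58.3 reads, and 20 and 24 members had under 10 reads. A signal of 0, meaning that a strand held no read in the called interval, was listed for 7 members in each library. Together the members took up 8.08% and 8.57% of the called regions of the 2 libraries and 8.31% and 8.23% of their called bases, but only 4.56% and 4.40% of the reads in called regions.

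The replicates gave similar but not equal values. Of the 1004 members, 768 (76.5%) had the higher signal in replicate 2, and shared regions leaned the same way (77.5%). Across the 990 members with a signal above 0 in both, the ratio of replicate 2 to replicate 1 had a median of 1.38 and quartiles of 1.03 and 1.82. Signals were over 2-fold apart in 23.6% of these members and over 4-fold apart in 21 members. For shared regions 15.0% were over 2-fold apart. Across the 1004 regions, which share their libraries and depth, log2(signal + 1) correlated between the replicates with Pearson's r = 0.71, and signal with Spearman's rho = 0.73. The corresponding values over shared regions were 0.82 for both. The called intervals overlapped only in part: the bases in common made up a median of 65.5% of the union of the 2 calls, against 78.4% in shared regions, and under 10% in 30 members.

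**Figure D2:**
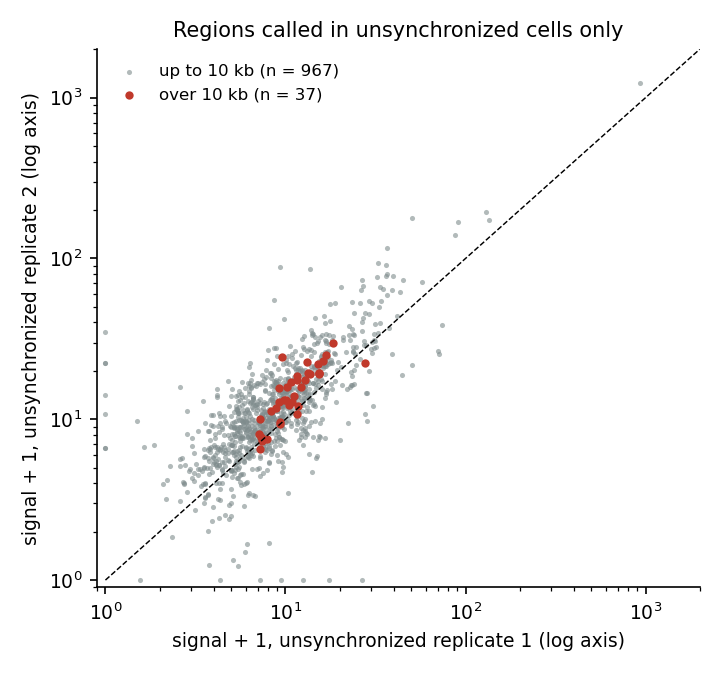
Signal + 1 of each region called in unsynchronized cells only, in unsynchronized replicate 1 (horizontal) and replicate 2 (vertical), both on log axes, with the dashed line marking equal values. Most points lie above the line (768 of 1004 regions are higher in replicate 2), and the 37 regions over 10 kb (red) sit between signals of 5.52 and 28.8.

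Merged lengths ran from 119 to 37826 bp with a median of 1087 bp and quartiles of 673.75 and 1809.5 bp. Shared regions had a median of 1641 bp. The 747 regions that had calls in both libraries of early G1 cells and in no other (early G1-only regions) had one of 967 bp. Merged length joins the calls of 4 libraries in shared regions and of 2 in members, so their medians are not on equal terms. As many as 995 and 984 of the members were a single called interval in replicates 1 and 2. Lengths had a long tail: 80 members (7.97%) exceeded 5 kb and 37 (3.69%) exceeded 10 kb, whereas 15 and 1 of the early G1-only regions did. Shared regions were long more often, 12.8% over 5 kb and 5.21% over 10 kb. Early G1 libraries also had fewer called regions over 10 kb of any kind, 140 and 184 against 331 and 238 in the unsynchronized libraries. The 37 regions over 10 kb took up 628 kb, or 30.2% of the merged length of all members. A count of regions over 10 kb depends on the early G1 library at hand, being 74 when the first of these libraries is left out and 83 when the second is, against 9 and 3 early G1-only regions. Without unsynchronized replicate 1 or 2 the counts were 31 and 48 members against 10 and 12 early G1-only regions, so the contrast was far smaller there.

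The regions over 10 kb had moderate signals, from 5.52 to 28.8. Their median signal was 9.82 and 14.6 in replicates 1 and 2, and their median reads were 2097 and 2165. Shared regions over 10 kb (n = 259) had a higher median of the mean unsynchronized signal, 18.5, against 11.6 for these members. Of the 37, 32 had the higher signal in replicate 2, while 28 had the longer call in replicate 1. In 26 of them both libraries held a single unbroken interval. In 10 of the 37 the shorter of the calls was under 5000 bp, so the full length rested on 1 library. Both calls exceeded 10 kb in 21 members.

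The longest region, chr13:85338907-85376732, carried a signal of 14.4 on 33709 bp in replicate 1 and 18.4 on 32272 bp in replicate 2, with 28155 bp in common. No early G1 call lay within 50862 bp of it. The second, chr14:28280058-28313560, had nearly the same signal in both libraries, 10.8 and 11.1, on calls of 32301 and 31086 bp. Its nearest early G1 call was 5848 bp away and was made in a single early G1 library. The third, chr3:19110338-19140525, had signals of 10.6 and 16.5 and its calls covered 30152 and 20228 bp. These regions had 4501 to 8000 reads in each library, far above the median member.

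The fourth, chr2:105789161-105816522, was both long and far from early G1 calls, with signals of 6.88 and 6.50 and 549337 bp to the nearest such call. Another call of unsynchronized replicate 2, with a signal of 4.89, lay just beyond its edge. The fifth, chr11:96809853-96836805, had signals of 8.25 and 11.8 and an early G1 call 2549 bp away. In 2 of the next 5, replicate 2 had called only a small part. At chr2:150643680-150665279 the calls covered 21600 bp in replicate 1 and 1128 bp in replicate 2, on 1989 and 84 reads. At chr3:20005952-20025780 they covered 19829 and 2816 bp, on 1856 and 239 reads. The other 3 were called at 15424 bp or more in both libraries. Signals there were 14.2 and 21.2 at chr6:113669521-113690730 and 9.16 and 14.98 at chr15:81733100-81752361, which had an early G1 call only 263 bp away. The third of these, on chromosome 18, spanned 20328 bp with signals of 15.2 and 22.2.

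**Figure D3:**
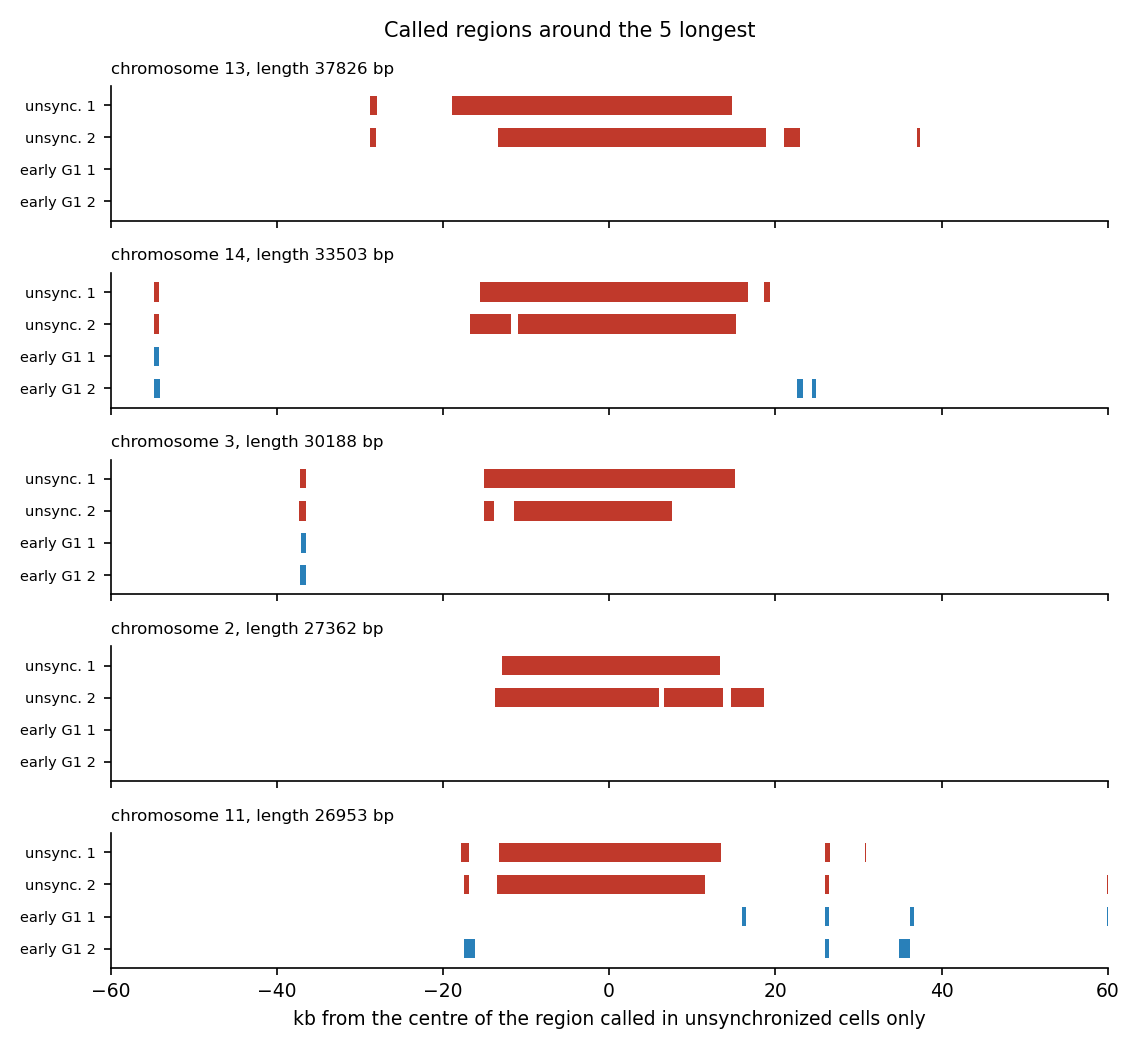
Called intervals (bars) in the 4 libraries within 60 kb on either side of the centre of the 5 longest regions called in unsynchronized cells only, with distance from that centre in kb on the horizontal axis. Wide red bars mark both unsynchronized libraries at each centre, and the blue early G1 bars are short and lie outside them, with none on the maps of chromosome 13 and chromosome 2.

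The highest signals belonged mostly to very short regions. At chr5:124078207-124078388, 182 bp long, the signal was 932 in replicate 1 and 1238 in replicate 2, on 2455 and 3037 reads. It stood far above the next region, chr13:23642572-23643242, which had signals of 129 and 192 on 1270 and 1733 reads. The third was chr13:21827258-21827529, with 134 and 173. In these 3 regions both replicates were within 1.5 times of each other.

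Replicates differed more in most of the others of the 10 highest. The signal was 90.04 and 168 at chr7:104845004-104845185, 49.6 and 178 at chr2:126959640-126959827 and 86.6 and 139 at chr8:74446430-74446679. It was 35.7 and 115 at chr5:67697968-67698163, 56.2 and 70.2 at chr5:45911365-45911611 and 31.7 and 92.1 at chr5:37104591-37104744. All 6 were between 154 and 250 bp long. An early G1 call lay within 250 bp of 4 of them, at 148 to 242 bp. The remaining one, chr15:61817066-61819567, was 2502 bp long, with a signal of 35.3 on 1298 reads in replicate 1 and 89.6 on 2085 reads in replicate 2. Its nearest early G1 call, 49943 bp away, belonged to a region called in all 4 libraries.

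Ranked by signal times length, the 5 highest members not yet named were mostly long, with signals from moderate to high. They were chr4:40670779-40687799 (17.4 and 28.8), chr16:18248962-18258247 (32.0 and 48.8), chr10:57225336-57242869 (12.7 and 18.3), chr3:116328716-116341873 (15.8 and 24.1) and chr8:90843339-90860390 (14.3 and 18.0), with the signal in replicates 1 and 2 in brackets. Each held 2884 to 6215 reads per library and had the higher signal in replicate 2. Early G1 calls lay 181 bp from the first and 81 bp from the third, while the second was 29891 bp from any.

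Calls were missing from early G1 most often where reads were few. Among regions that both unsynchronized libraries called on at most 50 mean reads, 180 of 381 (47.2%) had no early G1 call. The share was 30.9% of 1084 regions at 50 to 100 reads, 12.3% of 1882 at 100 to 200 and 6.48% of 2407 at 200 to 500. It then levelled off, at 4.18% of 1053 regions with 500 to 1000 reads and 5.11% of 1135 with more. In the mirrored case, regions of both early G1 libraries that lacked an unsynchronized call, the shares were 24.8% of 294, 22.4% of 997, 13.9% of 1808, 7.16% of 2206, 3.18% of 911 and 1.35% of 813 in the same classes. They were the lower ones at both ends and the higher ones from 100 to 500 reads. Both series fell with reads up to 1000, and the gap between the groups was widest at the lowest reads.

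By called length the groups parted among long regions. Up to 500 bp, 18.6% of the regions of the unsynchronized group and 18.3% of those of the early G1 group lacked a call in the other group. At 2 to 5 kb the shares were 7.77% and 4.36%, at 5 to 10 kb 9.29% and 1.96%. Among regions of over 100 reads the unsynchronized share went from 6.35% up to 500 bp to 9.96% above 10 kb, while the early G1 share went from 13.4% to 0.725%. The regions of the early G1 group are measured here on early G1 lengths and reads, so the classes of the groups do not hold the same regions.

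**Figure D4:**
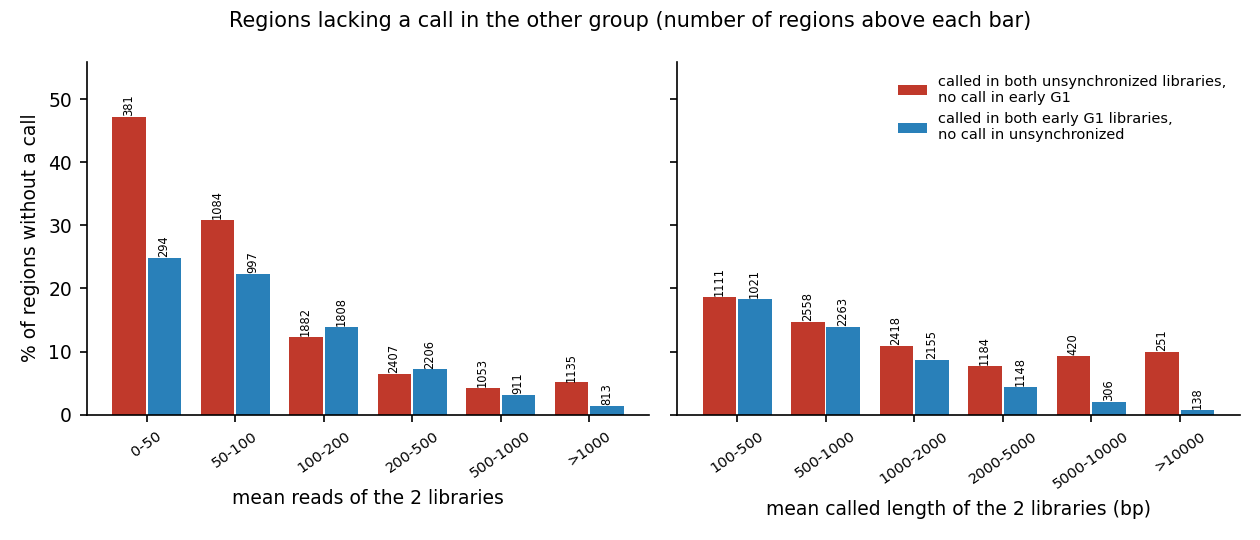
Share of regions without a call in the other group (vertical axis, %) by mean reads (left) and mean called length in bp (right) over the 2 libraries of the group in which they were called, with the number of regions above each bar. Red bars (called in both unsynchronized libraries) fall from 47.2% to 5.11% with reads and stay at 9.96% above 10 kb, where the blue bar (called in both early G1 libraries) is at 0.725%.

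A member with the same signal and length would have held fewer reads in an early G1 library. The median was 59.3 reads in early G1 replicate 1 and 69.2 in replicate 2. The lower end of what was called there was taken as percentile 5 of the reads of all called regions of like length in that library. With the deposited scaling, 137 members (13.6%) would have lain below this mark in both early G1 libraries, against 3.08% of the 6938 regions that did have an early G1 call. With signals raised by the median ratio of shared regions (1.34-fold), the shares were 6.37% and 1.23%. The mark is set by regions that were called, so it does not show how often a region of that many reads goes uncalled. The part of depth in the missing calls was not tested.

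The 58 members with more than 1000 mean reads held 47.5% and 48.8% of all reads of the members in replicates 1 and 2, and their median merged length was 10502 bp. At an unchanged signal the lowest of them would have held 546 reads in early G1 replicate 1, and the median 1066 and 1244 in replicates 1 and 2. Of the 58, 48 had signals within 2-fold of each other in the unsynchronized libraries. An early G1 call was found within 1 kb of 10 and within 10 kb of 36.

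Membership turned on small distances for some regions. The members closest to an early G1 call were chr13:112726258-112726492 at 3 bp, chr12:56402615-56403714 at 10 bp, chr11:119252136-119253491 and chr4:32451007-32452143 at 12 bp, and chr3:134875426-134876298 at 17 bp. Their mean signals were 23.9, 18.8, 4.51, 6.13 and 12.2. Just outside the rule, the fewest bases shared with early G1 calls were 5 at chr9:115215680-115219213, 10 at chr1:157405090-157405359 and 21 at chr1:173201950-173210236. Next were 29 bases at chr8:74796516-74797556 and 47 at chr5:142851683-142853009. The 8287 bp of chr1:173201950-173210236 carried signals of 6.29 and 9.37 in unsynchronized cells, and the early G1 calls inside it had 2.16 and 0. Such slight overlaps were rare, with under 100 shared bases in 28 of the 6938 regions, and the median region shared 94.0% of its unsynchronized length. Merging regions within 1 kb of each other left 831 members.

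The count of 1004 also rests on asking for 2 libraries per group. Leaving out unsynchronized replicate 1 gave 3038 and replicate 2 gave 3081, while leaving out early G1 replicate 1 gave 2381 and replicate 2 gave 1668, since each of these rules asks for 1 call fewer or 1 missing call fewer.

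Members were spread over all chromosomes but Y and the mitochondrial genome, where none lay. Chromosome 11 held most, 102 (10.2%), followed by chromosome 2 with 84 and chromosome 4 with 72. Chromosome 11 also held most shared regions, 8.75% of these. As a share of what both unsynchronized libraries had called there, members made up between 9.32% on chromosome 19 and 15.2% on chromosome 3. Chromosome 7 (9.92%) and chromosome 1 (10.04%) were also at the low end and chromosome 9 (14.9%) and X (14.5%) at the high end. Chromosome 11 held 5 of the 37 members over 10 kb and chromosomes 2, 5 and 6 held 4 each, whereas chromosomes 1, 12, 16 and X held none.

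Members lay about as far from shared regions as shared regions lay from each other. The distance from a member's edge to the nearest shared region had a median of 37342 bp, with quartiles of 10915 and 110479 bp. Shared regions were a median of 38647 bp from the nearest other shared region and early G1-only regions 45878 bp. Within 1 kb of a shared region were 6.67% of members, 6.43% of early G1-only regions and 10.02% of shared regions. Within 10 kb the shares were 24.1%, 22.9% and 27.3%, and within 100 kb 72.3%, 65.1% and 70.0%. These positions are not independent samples and were not tested.

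**Figure D5:**
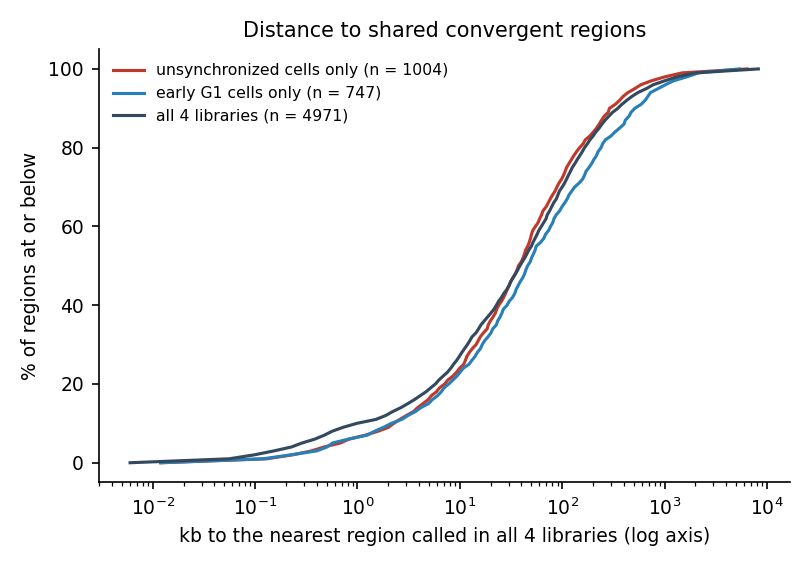
Cumulative share of regions (vertical axis, %) against the distance in kb from edge to edge to the nearest region called in all 4 libraries (log axis), for regions called in unsynchronized cells only (red), in early G1 cells only (blue) and in all 4 libraries (dark, each against the others). The red and dark curves cross near their medians of 37342 and 38647 bp, and the blue curve lies to the right above its middle.

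Distance to shared regions went with length more than with signal. Members within 10 kb of a shared region (242) had a median length of 1259 bp, those at 10 to 100 kb (484) one of 1111.5 bp and those farther away (278) one of 878.5 bp. Their median signals in replicate 1 were 7.19, 7.82 and 7.31. Of the members up to 1 kb long 18.1% had a shared region within 10 kb, against 30.0% of those of 1 to 2 kb, 29.2% of those of 2 to 10 kb and 21.6% of the 37 over 10 kb.

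Regions with any early G1 call include the shared regions, so the nearest of them could only be as near or nearer. The median distance to the nearest other such region was 8501.5 bp for members, 9488 bp for early G1-only regions and 7400 bp for shared regions. One lay within 1 kb of 183 members (18.2%), of 19.5% of early G1-only regions and of 23.9% of shared regions. The members farthest from shared regions were chr17:95258286-95260448, at 6416800 bp, and chr7:59134278-59134968, at 2099990 bp. Then came chr15:25787499-25788673, chr7:123471595-123472448 and chr3:27081814-27083065, at 1769140, 1765090 and 1621330 bp. Each still had an early G1 call within 108904 bp. Their signals ranged from 4.93 at the last of these to 27.9 at chr7:123471595-123472448, the only one whose signal was above 20 in both libraries.

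Most members had no other member beside them. Members made up 4.98% of all merged regions, so a neighbour that is a member is rare by number alone. In order along the chromosome, 880 had no member as a neighbour, 53 runs held 2 in a row and 6 runs held 3. At least 1 neighbour of the same set was found for 12.4% of members and 9.10% of early G1-only regions. At least 1 neighbour was a shared region for 45.3% of members, close to the 44.4% of early G1-only and 44.6% of shared regions. The tightest runs of 3 were chr9:45075414-45080532, which spans 5119 bp, and chr12:114458966-114465408, which spans 6443 bp. The run on chromosome 9 mixed extremes, with signals of 13.5 and 31.5, then 0.553 and 0, then 33.9 and 63.5 in replicates 1 and 2. In the run on chromosome 12 the signals of the 3 members were 5.94 and 3.93, then 22.6 and 25.7, then 8.67 and 6.38. In a run on chromosome 11, chr11:108109895-108136249, all 6 values lay between 7.93 and 9.35.

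Members fell into 646 of the 1797 bins of 1 Mb that held any merged region, and into 420 of them singly. The fullest bins held 6 members. One of these, chr12:114000001-115000000, contains the run on chromosome 12 and held 6 shared regions among 38 merged regions, and the other, chr2:32000001-33000000, held 8 among 33. In chr4:141000001-142000000, 5 of the 8 regions with calls in both unsynchronized libraries were members.

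On chromosome 13, 3 members of high signal lay between 21827258 and 23643242, a stretch singled out after the values were seen. Besides the 2 already named, chr13:22126000-22127081 had signals of 35.5 and 78.9. High signal was not particular to members there. Some shared regions of the stretch had higher unsynchronized signals, such as 711 and 991 at chr13:21871424-21872500 and 1171 and 298 at chr13:23518332-23519060. Others had low ones, such as 10.05 and 9.09 at chr13:23523784-23524512. The nearest shared regions lay 3591 to 12785 bp from these members. The one 3936 bp from chr13:22126000-22127081 is described below.

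The level of the shared regions around members was not used to choose them and was compared between the groups. The choice still depends on the extent of their early G1 calls. A shared region whose early G1 call reached a member would have merged with that member, which would then not count. All shared regions were fitted with limma on log2(signal + 1), with Benjamini-Hochberg adjustment over the 4972 regions, a two-sided threshold of 0.05 and the authors' scaling. Fold changes on this scale understate changes of weak regions. The nearest shared region within 10 kb of a member was a set of 228, whose median signals in unsynchronized cells were 17.1 and 24.3, against 16.9 and 22.4 over all shared regions. For early G1 cells their medians were 24.7 and 22.5, against 27.1 and 26.5 over all. The neighbours of members thus had a median slightly above that of all shared regions in both unsynchronized libraries and below it in both early G1 libraries.

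Near members the median log2 change, early G1 minus unsynchronized, was 0.26 (1.20-fold), and 66.7% of the 228 were above 0. Over all 4972 it was 0.41 (1.33-fold), with 78.0% above 0. Within 1 kb of a member the median was 0.29 (n = 66) and at 1 to 10 kb it was 0.25 (n = 162), while the 4336 shared regions that were no member's nearest within 100 kb had 0.43. Dividing each library by its median moved the value near members to -0.18 and that of all shared regions to -0.026, so the sign depends on the scaling, while the value near members was the lower of the pair under both. The difference between the sets was not tested.

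Few single neighbours passed the test. In limma, 1 of 228 was higher in early G1 (background 0.302%) and 0 were lower (background 0.0402%), and the unadjusted p was under 0.05 for 18 with a higher level and 1 with a lower one (backgrounds 13.9% and 0.945%). Both early G1 libraries lay above both unsynchronized libraries in 75 of 228 (32.9%, background 43.9%) and below them in 12 (5.26%, background 4.67%). Over all shared regions 17 passed. With unsynchronized replicate 1 or 2 left out, the median log2 change was 0.11 or 0.52 near members and 0.22 or 0.61 over all shared regions. Without early G1 replicate 1 or 2 it was 0.22 or 0.35 near members and 0.39 or 0.41 over all. A fit without a library leaves 1 group with a single library, which is assumed to vary like the other group. Regions are merged and neighbours chosen anew in these settings.

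The neighbour that passed was chr13:22121066-22122063. Signals of 38.3 and 36.9 in unsynchronized cells stood against 1719 and 278 in early G1 cells, which is 4.17 on the log2 scale with an SE of 0.63 (adjusted p = 0.024, limma). The groups did not overlap, but the early G1 libraries were far apart. The call did not hold when either unsynchronized library was left out, with values of 4.19 and 4.14, nor after division by library medians (3.71), for signal times length (4.75) or without limma's mean-variance trend. The member beside it, chr13:22126000-22127081, lay 3936 bp away and had no early G1 call.

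The next increases did not pass. At chr8:90832571-90833643, which lies 9695 bp from one of the long members, the unsynchronized signals of 7.91 and 7.69 compared with 36.4 and 29.7 in early G1 (log2 change 1.94, limma adjusted p = 0.083). Its called length was 1053 and 578 bp against 216 and 208 bp. At chr10:111433200-111434334 the signals were 24.1 and 26.0 against 76.6 and 98.2 (log2 change 1.75, limma adjusted p = 0.093), on calls of 885 to 1077 bp. At chr12:72069426-72070207 they were 99.3 and 38.4 against 248 and 129, with a log2 change of 1.52 (limma adjusted p = 0.21). The fifth, on chromosome 18, had a log2 change of 1.50. In all 5, chosen as the largest increases, both early G1 values exceeded both unsynchronized values, as they did in 43.9% of all shared regions.

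With the authors' scaling the largest negative values were smaller in size. At chr9:44215872-44226155 the unsynchronized signals of 35.5 and 49.7 compared with 31.0 and 8.37 in early G1 (log2 change -1.31, limma adjusted p = 0.28). At chr16:19005592-19007561, only 118 bp from a member, they were 36.2 and 54.6 against 44.0 and 11.1, and the groups overlapped. The remaining 3, chr7:38873584-38875555 (-0.93), chr13:53015429-53018281 (-0.87) and chr4:59273899-59274995 (-0.85), had no overlap between the groups and a limma adjusted p of 0.38 to 0.41. After division by library medians these 5 decreases were -1.75 to -1.30. The 5 increases were then 3.71 at chr13:22121066-22122063 and 1.06 to 1.51 at the others.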

How the data were processed

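GRO-seq was done on 2 unsynchronized and 2 early G1 libraries. Per the file headers, each of the 4 deposited lists gives convergent regions with the authors' signal, a geometric mean. Per the submitters' processing notes, the build was mm9 and the tools were HOMER and BWA 0.7.12. The calling rule and the scaling of the signal are not given in the sources used here. Groups and replicates came from the sample titles. Regions were merged with Python 3.11.15 and pandas 2.3.3, and where a library had several regions inside a merged one, their signals were averaged by length. The reads recovered from the signal were whole products (tolerance 0.1) for 100% of 2164 to 3383 regions per library with products under 5000. Shared regions were fitted with limma 3.58.1 in R 4.3.3 (mean-variance trend, pseudocount 1). Merging, distances and the fit were tested on simulated data.

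The regions named are the 10 longest members, the 10 of highest mean signal, the 5 of highest signal times length among the rest, the 5 farthest from a shared region, the 5 nearest to an early G1 call with 5 just outside the rule, and the 5 largest changes in each direction among neighbouring shared regions. Runs, the fullest bins and the stretch of chromosome 13 were chosen after their values were seen. Members, rules and tests were chosen with earlier results of these data known. Gene positions and DNA sequences of build mm9 were not used here.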

Additional observations from a re-analysis of the deposited data

How the results depend on the processing

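The number of members kept within 1.5 times of 1004 in the 5 settings that changed merging, overlap or filters, at 759 to 1034, and was 1668 to 3081 when a library was left out. Members over 10 kb numbered 31 to 83 in the same leave-one-out settings. Of the 35 named members 22 remained with merging within 1 kb. The median length was 731 to 1192.5 bp with a library left out and 1439 bp without regions of under 100 reads, a filter chosen after seeing the data. The median of the mean signal, 8.91 over all members, was 12.5 with regions below the 25th percentile of their library left out, 12.5 without regions of under 100 reads, and 5.63 to 10.5 with a library left out. The median distance to shared regions was 40930 bp with merging within 1 kb, 39447.5 bp when an early G1 call had to cover 10% of the merged length, 48875 bp without regions below the 25th percentile, 51562 bp without those of under 100 reads, 40914 bp from centre to centre, and 28684 to 34452 bp with a library left out.

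Dividing each library by its median reversed the median log2 change, to -0.18 near members and to -0.026 over all shared regions. In the other settings the value near members kept its sign, at 0.11 to 0.52 with a library left out. Of shared regions, 32 passed in limma without those of low mean signal, 0 after division by the median, 2 without the mean-variance trend, 4 with the replicate block, 0 as signal times length, 3 with merging within 1 kb, and 12 to 82 with a library left out. Near members the counts were 2, 0, 0, 1, 0 and 0 in these settings and 0 to 6 with a library left out. At an unadjusted p under 0.05 division by the median left 5 higher and 23 lower of 228 near members (212 and 285 of all 4972), and signal times length 12 and 11 (566 and 73). Same-numbered libraries deviated together only weakly (correlation 0.10 over 4972 regions), and the numbers alone do not show pairing. The median member held 94.1 and 103.5 reads, and counting error is larger for the weaker ones.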
